A study of Mesocricetus auratus with 24 samples.

Results

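Cultures grown from single colonies of normal morphology were compared with pools of many colonies, all from Syrian hamster fetal cells that had received the same carcinogen. The comparison took 8 of the 24 libraries of the series, chosen by their titles: 4 from normal colonies (Nc) and 4 from B[a]P-treated pools. In the Syrian hamster cell transformation assay, fetal cells are seeded at low density, exposed to a chemical and left to form colonies, which are then scored for altered morphology. Both groups here were exposed to B[a]P at 5 µg/mL. The name stands for benzo[a]pyrene, a combustion product whose metabolites bind DNA. The pools each held about 60 colonies and were collected on day 9. Each normal colony library came from a culture that had been expanded from a colony of normal morphology and was sampled between days 19 and 25. Labels give a single male fetus as the source for both groups and do not say whether it was the same one. Vehicle pools (0.2% DMSO, day 9, about 60 colonies) and cultures of transformed colonies (MTc, 5 µg/mL B[a]P, days 19 to 25), 4 libraries each, served for reference. The series describes the colonies and the pools as biological replicates, and the libraries of a group are called colony or pool 1 to 4 below. Time in culture, expansion and the number of founding colonies all differ between the groups, so their parts cannot be told apart. All these cells were typed as male by qPCR and grown with conditioned medium in place of a feeder layer.

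Cytosine methylation at CpG sites is copied to the daughter strand by the maintenance methyltransferase DNMT1 at each cell division, while DNMT3A and DNMT3B add methyl groups and TET enzymes start their removal. CpG islands at promoters are mostly unmethylated and the sparse CpGs elsewhere mostly methylated. At a single CpG, a level between these states in bulk DNA is a mixture, either of cells or of the parental alleles within a cell, as at imprinted genes. The windows used below sum reads over several CpGs, so an intermediate window can also hold methylated and unmethylated CpGs side by side. A pool of many colonies averages over many founder cells, whereas the cells of 1 colony descend from few. Reduced representation bisulfite sequencing, used here, covers the CpG-rich part of the genome, and bisulfite turns only unmethylated cytosine into uracil.

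The deposited coverage summed to between 42938360 and 63550318 in the normal colonies and between 39193876 and 41673018 in the B[a]P pools, with a median of 22 to 38 and 21 to 32 reads per CpG position. Methylation was read over windows of 1 kb with at least 3 positions, and 27646 windows were measured in all 16 pool and colony libraries. Colony 2 stood apart in how its reads were spread: it had the highest total, listed 4039 scaffolds against 4885 to 5389 in the other colonies, and had 78.1% of its window coverage in windows that were low in the vehicle pools, against 64.8% to 67.7% in the 7 other libraries compared. Weighted by reads over all listed positions, methylation was 26.0% in colony 2 and 45.5% to 47.4% in the other colonies. Vehicle pool 2, which has a part in the reference below, listed the fewest scaffolds of the vehicle pools (3884). No genome build is named in the labels, so regions are given by scaffold and position as listed in the tables, without genes.

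The average level hardly moved from pools to colonies, but the colonies lay on both sides of the pools. Mean methylation over the 27646 windows was 29.96% in colony 1, 28.45% in colony 2, 32.22% in colony 3 and 31.57% in colony 4. The 4 B[a]P pools were at 30.24%, 30.41%, 30.70% and 30.66%. Thus 2 colonies were below all pools and 2 above, and no colony fell inside their range. The group means were 30.55% ± 1.69 in the colonies and 30.50% ± 0.216 in the pools (SD, n = 4), a difference of 0.0506 percentage points (exact two-sided permutation test over 70 assignments, p = 0.971, adjusted p = 0.971 over 7 values). The SD between library means was therefore 1.48 points larger in the colonies, a description of 4 values a side. The transformed colonies ran from 30.99% to 32.61% and the vehicle pools from 29.22% to 30.48%.

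**Figure D1:**
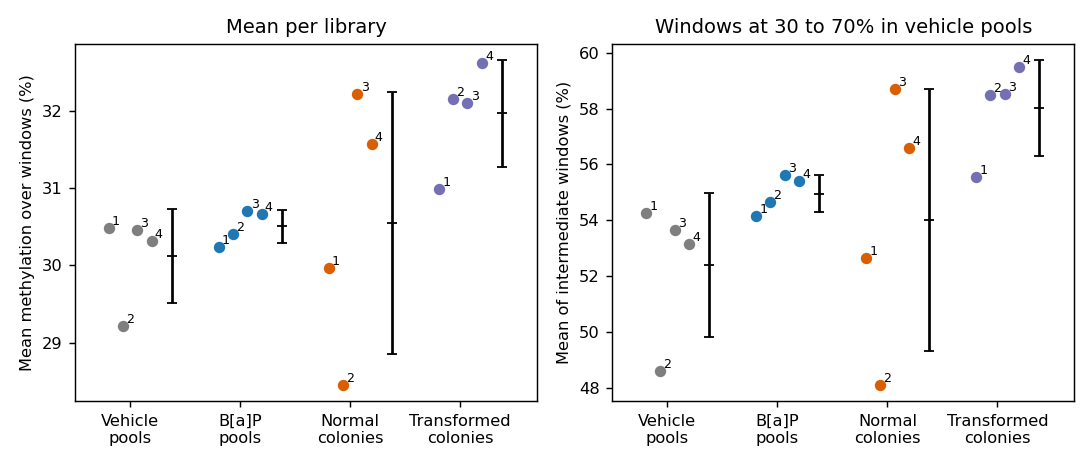
Mean methylation per library (%), over the 27646 windows measured in 16 libraries (left) and over the 4126 windows at 30 to 70% in the vehicle pools (right). Points are libraries with their replicate number, and the bars give mean ± SD of 4. The 4 normal colonies sit below or above all 4 B[a]P pools in both panels.

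Positions shared by the 8 libraries gave the same order of colonies. Over the 79621 positions with at least 10 reads in each, colonies 1 to 4 averaged 40.14%, 37.80%, 42.51% and 41.46% and pools 1 to 4 averaged 40.94%, 41.38%, 41.47% and 41.30%. Colonies 1 and 2 were again below all pools and colony 3 above, while colony 4 was inside their range. The mean was 40.48% ± 2.03 in the colonies and 41.27% ± 0.233 in the pools (SD, n = 4), a difference of -0.796 points that did not pass (exact two-sided permutation p = 0.571, adjusted p = 0.667). Colony 2 carried that difference, which was 0.0959 points without it. A position entered only where all 8 libraries covered it, colony 2 included, and the part of that library's uneven reads in the result was not tested.

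The size of a colony's departure from the pools differed with the level in the vehicle pools. In the 4126 windows at 30 to 70% in the vehicle pools, colonies 1 to 4 averaged 52.65%, 48.10%, 58.71% and 56.59%, which is -2.31, -6.86, 3.75 and 1.63 points from the mean of the B[a]P pools. Pools 1 to 4 lay between -0.796 and 0.658 points from their mean. In the 2148 windows at 10 to 30%, colonies 1 to 4 were -1.24, -4.55, 3.93 and 4.03 points from the pools, so colonies 3 and 4 departed more there than in the intermediate windows. In the 4412 windows at 70 to 90% they were -1.36, -3.42, 2.09 and -0.0556 points from the pools, and colony 4 was no longer above them. In the 14880 windows below 10% the colonies were at 2.17%, 1.83%, 2.63% and 2.80% and the pools between 1.87% and 2.01%. Colonies 1, 3 and 4 were above all pools in these low windows and colony 2 below all of them. The difference between group means of 2.36% ± 0.439 and 1.95% ± 0.0597 (SD, n = 4) did not pass (exact two-sided permutation p = 0.143, adjusted p = 0.5). In the 2080 windows above 90% the means were 91.79% ± 1.28 and 91.25% ± 0.370 (SD, n = 4; exact two-sided permutation p = 0.514, adjusted p = 0.667).

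A colony's departure had the same sign on most of its scaffolds. On 144 scaffolds with at least 20 windows at 10 to 90% in the vehicle pools, colonies 1 to 4 were lower than the mean of the B[a]P pools on 108, 138, 20 and 36. The scaffold mean of colony 2 was below all 4 B[a]P pools on 109 and above all on 1. Colony 1 was below on 60 and above on 8. Colony 3 was above all pools on 85 scaffolds and below on 6, and colony 4 was above on 63 and below on 13. The median difference from the pools was -4.78 points for colony 2, -1.60 for colony 1, 3.08 for colony 3 and 1.48 for colony 4. A B[a]P pool set against the 3 other pools had a median between -0.692 and 0.951 points. Pools 1 to 4 were lower than the others on 93, 87, 55 and 64 scaffolds. A colony's scaffolds thus shifted together by more than those of a B[a]P pool. Vehicle pools were not read by scaffold. In the 4126 intermediate windows, vehicle pool 2 was -6.36 points from the mean of the B[a]P pools. The other vehicle pools were -1.82 to -0.689 points from it.

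**Figure D2:**
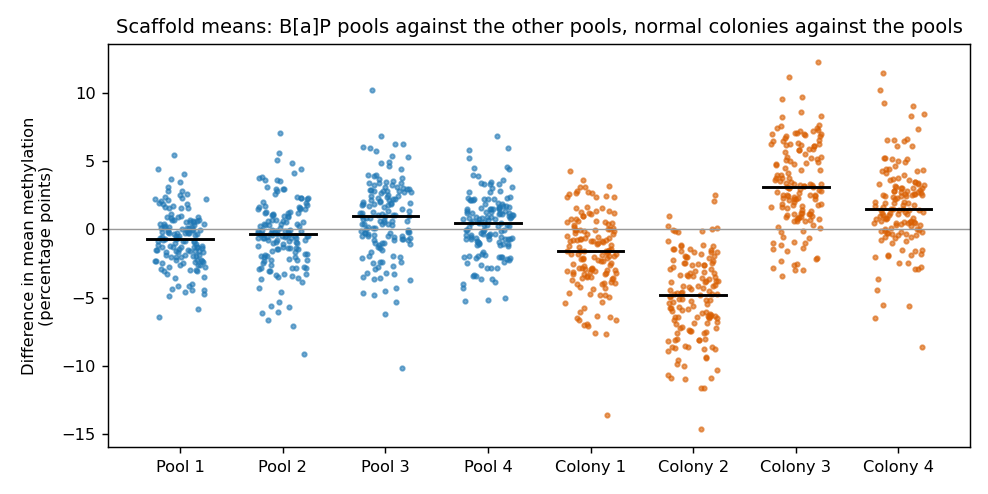
Difference in mean methylation (percentage points) on each of 144 scaffolds, for each B[a]P pool against the 3 other pools and each normal colony against the 4 pools. Points are scaffolds and black lines are medians, which run from -4.78 to 3.08 points in the colonies and from -0.692 to 0.951 in the pools.

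At single windows, colonies differed from each other more than B[a]P pools did. They did not differ more than the 4 vehicle pools, whose spread was lower without vehicle pool 2. The median over all windows of the SD between 4 libraries was 4.21 points in the colonies and 3.94 in the B[a]P pools, and 55.3% of windows had the larger SD in the colonies. The vehicle pools were at 4.22 points. With sets of 3 libraries on both sides, the gap of 0.271 points between colonies and B[a]P pools was 0.0742 without pool 1, 0.114 without pool 4, 0.437 without pool 3, 0.154 without colony 3 and 0.177 without colony 4. It was 0.0657 in windows with at least 10 positions. In the 4126 intermediate windows it was 16.24 points against 13.50, and 61.9% of windows had the larger SD in the colonies. Leaving out each library in turn, the median SD of 3 in these windows ran from 14.35 to 15.84 in the colonies, with the lowest value without colony 2, and from 11.48 to 13.27 in the B[a]P pools, so the ranges did not meet. A spread is 1 value a group and was not tested. The vehicle pools, which set the class and include the uneven pool 2, had a median SD of 16.47 points there, and the transformed colonies 14.47. Without vehicle pool 2, the median SD of 3 vehicle pools was 13.66 points there, below the range of the colonies. Over all windows it was 3.39 points, against 3.52 to 3.65 for 3 colonies.

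Large differences between libraries were more frequent among colonies than among B[a]P pools, and about as frequent among vehicle pools as among colonies. In the 4126 intermediate windows, 2 colonies differed by over 50 points in 5.19% to 9.26% of windows over the 6 pairs, 2 B[a]P pools in 2.25% to 6.52%, and 2 vehicle pools in 4.92% to 11.22%. Pairs of vehicle pools without vehicle pool 2 ran from 4.92% to 7.25%. The highest and lowest colony were over 50 points apart in 1036 windows (25.1%), the highest and lowest B[a]P pool in 643 (15.6%), and the highest and lowest vehicle pool in 1149 (27.85%). Among the 8 libraries compared, pool 3 had the fewest positions per intermediate window, with a median of 7. Pool 2 and colony 2 had 8, and the others 9 or 10. Vehicle pools 1 to 4 had medians of 8, 6, 8 and 9 positions. Their median reads per window were 254 to 324, against 345 to 451 in the colonies. The part of these numbers in the spread was not tested.

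Intermediate windows were then followed into low and high states. A window counted as intermediate when its mean in the 4 vehicle pools was 30 to 70%. It counted as low below 20% and high above 80% in a library. The vehicle pools are on neither side of the comparison, but the choice is not neutral. They share the day of collection and the approximate number of colonies with the B[a]P pools and not with the normal colonies. Every class tried was set by pools and none by colonies. The part of this choice in the shares below was not tested. The share that stayed between 20 and 80% was 78.70%, 72.32%, 73.10% and 78.65% in colonies 1 to 4. It was 84.27%, 79.67%, 73.63% and 82.31% in pools 1 to 4. All colonies were below 3 of the pools, but pool 3, which had the fewest positions per window of the 8 libraries, lay among the colonies. Colonies averaged 75.69% ± 3.46 and pools 79.97% ± 4.63 (SD, n = 4). Their difference of -4.28 points did not pass (exact two-sided permutation p = 0.143, adjusted p = 0.5), and it ran from -2.84 without pool 1 (exact permutation p = 0.4) to -6.39 without pool 3 (exact permutation p = 0.0857).

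Which way the windows went differed from colony to colony. The share that was low was 9.06% in colony 1, 16.14% in colony 2, 6.47% in colony 3 and 6.06% in colony 4. In pools 1 to 4 it was 5.89%, 7.68%, 9.16% and 5.99%. Colony 2, at 666 of the 4126 windows, was the only library of the 8 above 10%. The difference between 9.43% ± 4.67 in the colonies and 7.18% ± 1.56 in the pools (SD, n = 4) did not pass (exact two-sided permutation p = 0.457, adjusted p = 0.667), and without colony 2 its 2.25 points became 0.0182.

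High states were most frequent in a different colony. The share above 80% was 12.24%, 11.54%, 20.43% and 15.29% in colonies 1 to 4 and 9.84%, 12.65%, 17.21% and 11.71% in pools 1 to 4. Colony 3 had the highest share of the 8 libraries, with 843 windows. The means were 14.88% ± 4.05 and 12.85% ± 3.13 (SD, n = 4; exact two-sided permutation p = 0.514, adjusted p = 0.667), and the difference of 2.02 points was 0.172 without colony 3. Thus colony 2 had more low windows and colony 3 more high ones, while colonies 1 and 4 kept 78.7% of windows intermediate.

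**Figure D3:**
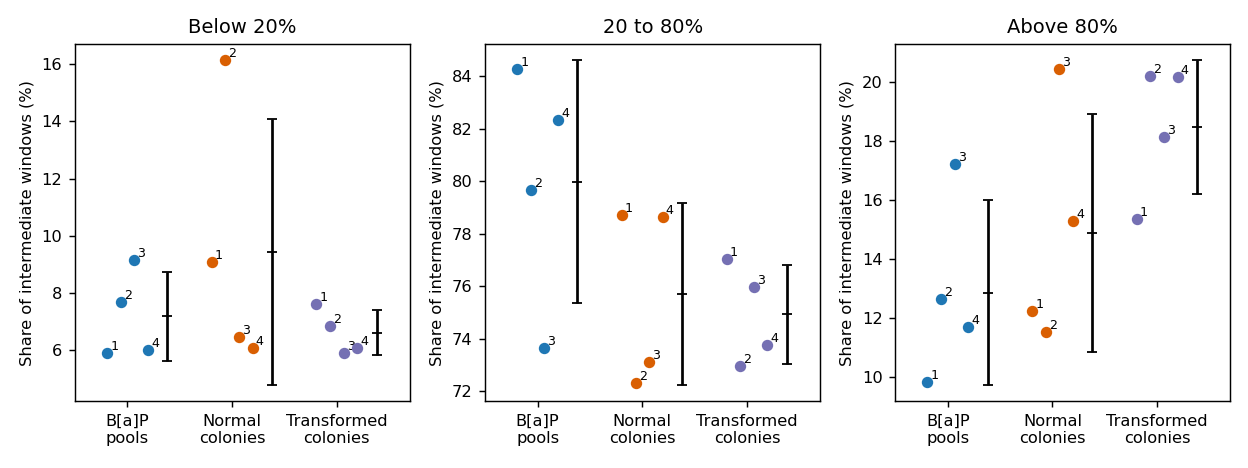
Share (%) of the 4126 intermediate windows that were below 20%, at 20 to 80% or above 80% in each library of the B[a]P pools, normal colonies and transformed colonies; the axes do not start at 0. Points are libraries with their replicate number and bars give mean ± SD of 4; colony 2 is highest for low windows (16.14%) and colony 3 for high ones (20.43%) among the normal colonies.

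The intermediate share was also read by the number of positions in a window. In 3 of the 4 classes the groups overlapped. Colonies kept 73.0% to 78.7% and pools 74.7% to 83.8% of 751 windows with a mean of 3 to 6 positions. These ranges were 70.5% to 78.2% and 70.9% to 83.0% for the 1620 windows with 6 to 10 positions, and 71.2% to 79.3% and 73.9% to 84.5% for the 1442 windows with 10 to 20. All classes thus had the lower range in the colonies. Among the 313 intermediate windows with a mean of at least 20 positions, the colonies kept 73.8% to 82.1% intermediate and the pools 84.0% to 91.1%, the 1 class in which the groups did not overlap. The transformed colonies, at 76.04% to 80.51%, were also below all B[a]P pools in that class. Vehicle pools kept 81.15% to 92.01%, and the lowest, vehicle pool 2, lay within the range of the normal colonies. There, 12.94% ± 5.96 were low and 7.67% ± 3.01 high in the colonies, against 9.03% ± 2.14 and 3.99% ± 1.91 in the pools (SD, n = 4). These classes were chosen after the values were seen and have no test. Among windows with at least 10 positions in every library, 254 in all, the high share was 7.87% in the colonies and 4.04% in the pools, a difference of 3.84 points with no overlap (exact two-sided permutation p = 0.0286, unadjusted, the smallest that 70 assignments allow).

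Each of the 8 libraries kept most of its intermediate windows between 20 and 80%. Between 40 and 60% lay 30.78%, 25.50%, 26.61% and 31.10% of the intermediate windows of colonies 1 to 4, and 33.96%, 29.76%, 27.65% and 33.28% of those of pools 1 to 4. At 10% or less lay 3.98%, 8.02%, 2.69% and 1.99% in the colonies, and 1.65%, 3.39%, 4.97% and 2.25% in the pools. Colony 2 and pool 3 had the most windows at the lowest levels, with 5.38% and 3.98% below 5%, against 0.703% to 2.08% in the 6 other libraries.

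**Figure D4:**
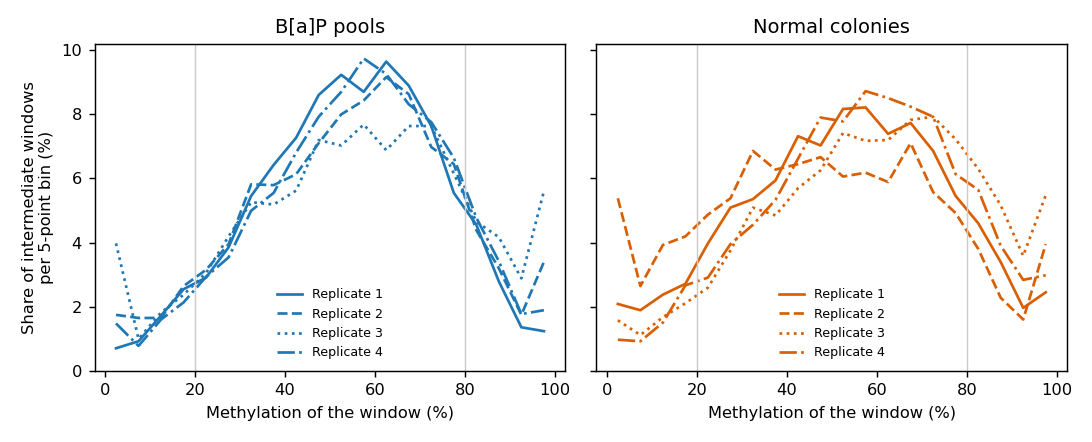
Distribution of methylation (%) over the 4126 intermediate windows in bins of 5 points, as the share of windows per bin (%), for the B[a]P pools (left) and the normal colonies (right); each line is 1 library, and grey lines mark 20 and 80%. Most windows stay between the grey lines in every library, from 72.32% in colony 2 to 84.27% in pool 1.

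Low or high states were seldom shared by all colonies. Of the 4126 windows, 60.9% were low or high in at least 1 colony and 51.9% in at least 1 B[a]P pool. Only 19 windows were low in all 4 colonies and 30 high in all 4, against 20 and 48 in the pools. A window was low in 1 colony and high in another in 206 cases (4.99%), the B[a]P pools had 108 (2.62%), and the vehicle pools, which set the class, 253 (6.13%). Of the windows low in colony 2, 61.6% were low in no other colony, against 41.2% to 44.9% for the other colonies and 39.1% to 53.7% for the pools. Of those high in colony 3, 45.1% were high in no other colony, against 34.2% to 38.7% in the others and 37.9% to 52.5% in the pools.

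Windows where the colonies differed most show what these numbers mean at single places. They are the 6 with the largest SD between colonies among 1316 intermediate windows with at least 5 positions and 100 reads in each of the 16 libraries, so their spread is a description. On KB708206.1, positions 10247001 to 10248000, colony 3 was at 89.38% and colonies 1, 2 and 4 at 8.27%, 0% and 0%. The B[a]P pools there were at 17.94%, 16.11%, 0% and 45.25%. Colony 3 was thus the only one of the 8 libraries above 50%, and the transformed colonies ran from 32.5% to 66.1%.

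On KB708129.1, positions 1579001 to 1580000, the colonies fell into opposite states: colonies 1 and 4 at 1.55% and 17.69%, colonies 2 and 3 at 72.69% and 85.64%. All pools lay between these, at 23.29%, 22.31%, 39.59% and 52.35%. On KB708169.1, positions 9844001 to 9845000, colony 1 was at 2.63%, colonies 2 and 3 at 29.35% and 31.39%, and colony 4 at 95.77%. The pools there, at 45.72%, 36.17%, 57.81% and 48.43%, were close together, with an SD of 8.90 points against 39.56 in the colonies. The transformed colonies were as far apart as the normal ones at that window, from 4.66% to 100%.

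In 2 of the remaining windows colony 2 alone was low. On KB708217.1, positions 6517001 to 6518000, it was at 0% and the other colonies at 66.85%, 95.22% and 83.75%, with the pools from 58.83% to 100%. On KB708130.1, positions 20376001 to 20377000, it was at 8.91% and the others at 53.57%, 99.65% and 86.25%, with the pools from 50.40% to 81.63%. Vehicle pool 2 was low at both windows as well, at 0% and 10.61%. The last, on KB708127.1 from 55906001 to 55907000, had colonies 1 and 4 at 85.47% and 75.14% and colonies 2 and 3 at 3.36% and 13.38%, but the pools also ran from 5.83% to 86.00%, so a wide range there was not limited to colonies.

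Windows that all colonies held in 1 state were picked by the lowest maximum and the highest minimum over the colonies, from the same 1316. The 4 low ones were on KB708239.1 (6853001 to 6854000), KB708240.1 (7174001 to 7175000 and 6085001 to 6086000) and KB708165.1 (8780001 to 8781000), with colony means of 9.29%, 9.12%, 14.50% and 12.56%. Their B[a]P pools averaged 14.63%, 24.82%, 8.13% and 17.89%, so the pools were higher than the colonies at 3 of the 4 and lower at the third named. The 4 high ones were on KB708180.1 (12398001 to 12399000), KB708274.1 (2186001 to 2187000), KB708140.1 (11619001 to 11620000) and KB708313.1 (317001 to 318000), with colony means of 95.36%, 90.56%, 88.20% and 83.64%. There the pools averaged 81.01%, 79.13%, 75.67% and 74.72%. All 8 were chosen by the colonies' values, and none was called in the test that follows.

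Departures of neighbouring windows were more alike in colonies than in pools. For each library, the departure of a window from the vehicle mean was set against that of the window 1 kb further on, over 561 pairs of adjacent windows at 10 to 90% in the vehicle pools. Pearson's r was 0.0928, 0.142, 0.158 and 0.229 in colonies 1 to 4. It was -0.00783, 0.00172, -0.0124 and -0.0249 in pools 1 to 4. Every colony was above every pool, and the transformed colonies, at 0.124 to 0.247, were too. The correlations are weak, run across windows and not samples, and have no p. All libraries share the same windows and the same vehicle mean. That reference is itself made of day 9 pools, and no reference other than vehicle pools was tried. Its part in the difference between colonies and pools was not tested. At 2 to 5 kb the means over 4 libraries were 0.0303 in the colonies and 0.00965 in the pools, and at 21 to 100 kb 0.0181 and -0.00289, with overlapping libraries at both distances.

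**Figure D5:**
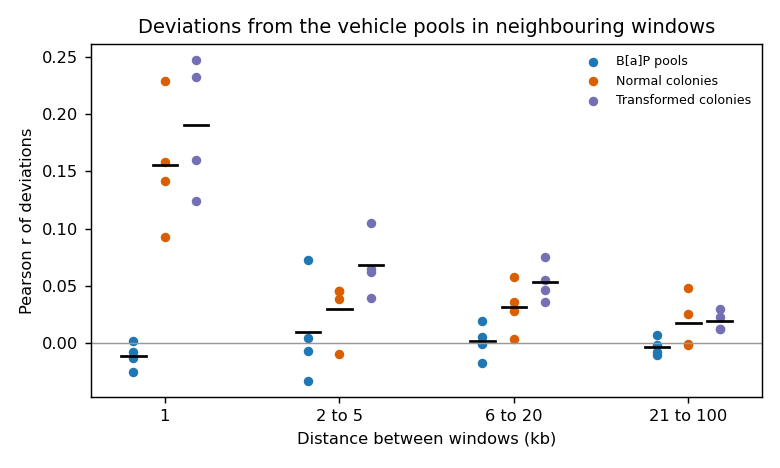
Pearson's r, across pairs of windows, of each library's departure from the vehicle mean, by distance between the windows (kb). Points are libraries, black lines are means of 4, and the grey line is 0; at 1 kb the normal colonies run from 0.0928 to 0.229 and the B[a]P pools from -0.0249 to 0.00172.

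No single window passed the test of colonies against pools. Methylated and unmethylated reads entered a quasi-binomial logistic fit per window, with dispersions squeezed by limma. It covered 21991 windows with a pooled level of 5 to 95%, each with a median of 318 reads per library, counted once for every position they cover. At an adjusted p under 0.05 and a difference of at least 10 points, 0 windows passed (0%), the lowest adjusted p being 0.123. Before adjustment, 1673 windows (7.61%) had p under 0.05 in this test, which is not read as an excess. Among simulated windows with no change, 7.90% passed that limit. The simulation took its dispersions from these same data, so it cannot decide whether there was an excess. In it, the test called 1% of changes of 20 points and 26% of changes of 40 points. In edgeR's quasi-likelihood test, which also called 0, 650 windows had p under 0.05. Group means were 10 points or more apart at 7711 windows (35.1%), and the median difference was -0.0675 points, with colonies lower at 50.2% of windows. The groups did not overlap at 775 windows (3.52%), of which 417 (1.90%) were higher and 358 (1.63%) lower in the colonies. The failure to pass does not show that windows were alike, since the median dispersion was 34.35 times that of independent counts.

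The 5 windows with the smallest p, none of which passed, had colonies close together and apart from the pools. On KB708264.1, positions 2713001 to 2714000, the colonies were at 5.88%, 5.65%, 5.45% and 0% and the B[a]P pools at 25.29%, 38.85%, 30.62% and 33.40% (means 4.25% ± 2.84 and 32.04% ± 5.65, SD, n = 4; limma-squeezed test, adjusted p = 0.123). All colonies were low there, while transformed colonies 1 to 4 were at 92.80%, 0.229%, 61.65% and 0.272%. Vehicle pools 1, 3 and 4 were at 25.71%, 25.70% and 30.83%, near the B[a]P pools, and vehicle pool 2 at 0% from 4 positions. This window, with 18 or more positions in each of the 8 libraries, was called when only positions shared by the 8 libraries were used (means 2.05% and 37.50%, limma-squeezed test, adjusted p = 0.0093). On KB708344.1, positions 280001 to 281000, the colonies were at 73.73%, 72.69%, 75.97% and 83.32% and the pools at 98.16%, 90.81%, 93.37% and 86.16% (adjusted p = 0.297 in the limma-squeezed test). The 4 vehicle pools (86.52% to 88.40%) and the 4 transformed colonies (89.37% to 96.40%) were also above all normal colonies at that window.

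The other windows with a small p had a lower minimum of positions per library, at 3, 5 and 7 in the order below, against 18 and 9. On KB708402.1, positions 378001 to 379000, colonies were at 0%, 0%, 2.59% and 16.96% and pools at 67.10%, 58.87%, 79.81% and 55.06%, from as few as 3 positions in a library. On KB708129.1, positions 22466001 to 22467000, the means were 24.67% ± 5.11 in the colonies and 61.21% ± 16.27 in the pools. On APMT01211033.1, positions 3001 to 4000, the colonies were the higher group, at 97.29% ± 2.38 against 54.30% ± 16.86 (SD, n = 4). The adjusted p of these 3 windows was 0.467 in the limma-squeezed test. In the same order, the vehicle pools ran from 13.27% to 65.82% (vehicle pool 1 had no position that met the coverage limits there), 10.01% to 90.61% and 52.81% to 100%.

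Transformed colonies, labelled with the same range of days in culture and the same treatment, were set beside the normal ones. They kept 74.93% ± 1.89 of the intermediate windows between 20 and 80%, against 75.69% ± 3.46 in the normal ones (SD, n = 4). By exact permutation, two-sided, p was 0.629 for this, before and after adjustment over 6 values. High windows made up 18.46% ± 2.28 in the transformed and 14.88% ± 4.05 in the normal colonies (exact two-sided permutation p = 0.229, adjusted p = 0.457), and low windows 6.60% ± 0.785 and 9.43% ± 4.67 (p = 0.314, exact permutation, adjusted p = 0.471). None of these differences passed, and the values of the normal colonies were the more scattered in each.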

How the data were processed

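Reduced representation bisulfite libraries of 8 samples, with 8 pool and colony libraries for reference, were grouped by their titles. The submitters' processing notes name methylKit 1.10.0, R 3.6.1, Bowtie2, Bismark 0.22.1, Trim Galore 0.5.0 and bcl2fastq 2.20.0.42, without their settings. Per the file headers, the deposited tables give read coverage as a count per CpG position and strand, and the percent of reads with C or T; no position under 10 reads is listed. Multiplying coverage by the percent of C gave methylated reads, within 0.0489 reads of a whole number at coverage up to 1000. Neither the build nor any removal of PCR copies is stated in the labels, so counts may hold copies of 1 molecule.

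After the 0.1% of positions with the highest coverage were left out of each library, reads were summed over 1 kb windows with at least 3 positions per library. Windows with a pooled level of 5 to 95% were tested in R 4.3.3 with a quasi-binomial model, dispersions squeezed by limma 3.58.1 within 10 classes of level (floor 1), an F test and Benjamini-Hochberg adjustment; edgeR 4.0.16 was an alternative. The window test was tried on simulated data. Per-library values were compared by exact two-sided permutation, adjusted over 7 values (6 against transformed colonies). No pair of replicates agreed within binomial noise (lowest mean chi-square 21.42 per position). Windows named are the 5 of smallest p, the 6 intermediate windows of largest SD between colonies, and the 4 of lowest maximum and 4 of highest minimum. Members, classes and rules were chosen with earlier results of these data known. The adjacent-window correlation, the scaffold means and the classes by positions were chosen after seeing the data.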

Additional observations from a re-analysis of the deposited data

Results flagged for a closer look

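Vehicle pool 2, one of the 4 libraries that set the intermediate class, was far from the 3 others in 2 groups of 4 values. No other group was flagged among the 26 examined, which cover both kinds of pool and both kinds of colony. Independent groups would give about 1.3 by chance over all 26. The values share windows and libraries, so 1.3 is not a chance rate for vehicle pool 2. Its mean over windows was 29.22%, against 30.32% to 30.48% in the other vehicle pools. Its share of low windows in the intermediate class was 11.37%, against 4.63% to 5.19%. With the class set by the 3 other vehicle pools, 75.76% of 4147 windows stayed intermediate in the normal colonies and 79.50% in the B[a]P pools, -3.74 points apart (exact permutation p = 0.229, two-sided).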

How the results depend on the processing

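The numbers of replicates did not pair the libraries, with correlations of same-numbered deviations from 0.000486 to 0.0241, and the replicate block gave 1 called window (KB708265.1, 3745001 to 3746000) against 0; by exact sign flips the mean over windows had p = 1, shared positions p = 0.75, and the low, high and intermediate shares p = 0.375, 0.25 and 0.125, the last being the smallest that 4 pairs allow. The count of called windows was also 1 without squeezing (KB708137.1, 7104001 to 7105000) and with positions shared by the 8 libraries, and 0 in the 14 other alternatives, each library left out included. The colonies averaged 24.48% ± 46.73 at the window called with the block and 17.13% ± 3.14 at the window called without squeezing (SD, n = 4). The B[a]P pools were at 0% ± 0 at both. The difference in mean over windows changed sign to -2.15 points with windows weighted by reads and to -0.540 in windows of 10 to 90% in the vehicle pools (added after seeing the data), and ran from -0.506 to 0.751 with a library left out, negative without colony 3, colony 4 or pool 1. Over shared positions the difference ran from -1.47 to 0.0959 with a library left out. It was -3.90 points with positions weighted by reads and -1.235 with at least 20 reads per position. The high share reached an unadjusted exact permutation p of 0.0286 with at least 10 positions per window (3.84 points), the smallest possible and not enough after adjustment over 7 values, and ran from 0.172 to 3.48 with a library left out; the low share ran from 0.0182 to 3.38 and the intermediate share from -6.39 to -2.84. None changed direction or call in the other alternatives. The difference in median SD was 0.271 points, 0.0657 with at least 10 positions, 0.845 over positions shared by the 16 libraries, 2.74 in intermediate windows and 0.0742 to 0.437 with a library left out of either group (sets of 3 on both sides); as the SD of library means it was 1.48. The adjacent-window r stayed higher in all colonies than in all pools in 3 added alternatives, at 0.105 to 0.372 against -0.128 to 0.099. The cause of these changes was not tested.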

Other observations

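Over 3063 intermediate windows measured in all 24 libraries, 73.16% to 80.02% stayed at 20 to 80% in the normal colonies (mean 76.96%, n = 4) and 75.42% to 86.45% in the B[a]P pools (mean 81.89%, n = 4). Senescent cultures, derived from a transformed colony of an assay on pooled fetuses and sampled on day 48, kept 73.07% ± 4.27, and cultures that had bypassed senescence, on day 94, kept 64.57% ± 2.37 (SD, n = 4, technical replicates for these 2 groups). High windows made up 13.83% ± 3.69 in the normal colonies, 22.36% ± 3.16 in the senescent cultures and 30.97% ± 1.14 after bypass, and low windows 9.21% ± 4.61, 4.58% ± 1.22 and 4.46% ± 1.26. The senescent and bypass cultures are also labelled with B[a]P at 5 µg/mL. These groups differ from the normal colonies in fetuses, days in culture and kind of replicate, and no test was run between them.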
